A study of Mus musculus with 6 samples.

Results

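The 9 leukocyte integrin subunit genes Itga4, Itga5, Itga6, Itgal, Itgam, Itgax, Itgb1, Itgb2 and Itgb7 and the E-cadherin gene Cdh1 were followed in a clone of mouse blood progenitor cells after the inducer of Evi1 had been taken away. They were read on every probe set that the platform annotation pairs with exactly 1 gene symbol, that symbol being 1 of the 10, which gave 24 of 45037 probe sets and 10 of 18193 named genes. The cells were the hematopoietic progenitor clone C6 on the Rosa26rtTA C57BL/6J background, a single clone, carrying the vector pRRL.TET.Evi1.IRES.EGFP, whose codon-optimized murine Evi1, the gene of a zinc finger transcription factor, is switched on by doxycycline. Both groups were grown in medium with murine SCF, human Flt-3 ligand and human IL-11, each at 50 ng/ml, and murine IL-3 at 20 ng/ml. For the doxycycline group 3 arrays were made, with the drug present at 1 µg/ml, and for the withdrawal group 3 more, 48 h after it had been removed. Nothing in the labels says whether replicates were separate cultures, and the p-values therefore cover only the variation among these 6 arrays, perhaps technical. All cells carried the vector, and no array came from cells without it.

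Integrins are surface receptors built of an alpha and a beta chain, and each pairing binds its own ligands. In white cells the beta 1 chain joins the alpha 4, alpha 5 or alpha 6 chain to hold progenitors to fibronectin, laminin and the vascular adhesion molecule VCAM-1, the beta 2 chain joins alpha L, alpha M or alpha X to bind ICAM molecules and complement, and the beta 7 chain joins alpha 4 or alpha E. E-cadherin binds E-cadherin on a neighbouring cell and is also a ligand of the alpha E beta 7 integrin. It is best known from epithelia, and is found as well on Langerhans cells and on mast cells.

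After doxycycline withdrawal Cdh1 rose and Itga4 fell, and the other 8 genes did not pass the test. The call of Cdh1 was kept with any 1 array left out, whereas that of Itga4 was lost without each of the 6 in turn. Cdh1 was 1.83-fold higher and Itga4 1.29-fold lower on its brightest probe set. Among the 10, all 4 genes of the beta 2 family had differences above 0 and all 4 of the beta 1 family below 0. Of these 8 only Itga4 passed, and the signs of Itgam and Itga5, the smallest of each family, turned under some alternatives. Outside the 10, Itga1, whose alpha 1 chain also joins beta 1, rose (0.58), the only call among 15 other measured integrin subunits. Each gene is read here from its probe set of highest mean over the 6 arrays. A difference means the withdrawal mean less the doxycycline mean in log2 units, with its standard error from limma, n = 3 arrays per group, and passing means a limma p below 0.05 after Benjamini-Hochberg adjustment over all 45037 probe sets.

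Under this rule 2.77% of all named genes were called, 1.20% as higher and 1.57% as lower, and 1 of the 10 genes was called in each direction. All 10 lay above the median level of the probe sets (5.24), where 4.23% of genes were called. The median absolute difference was 0.24 over the 10 genes and 0.09 over all genes. The groups did not overlap for 7 of the 10 genes, 4 with withdrawal higher and 3 with withdrawal lower, against 24.7% of all named genes (12.4% higher and 12.2% lower) and 33.7% of those above the median level. With so few genes these shares describe the 10 and set them apart from no other list.

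**Figure D1:**
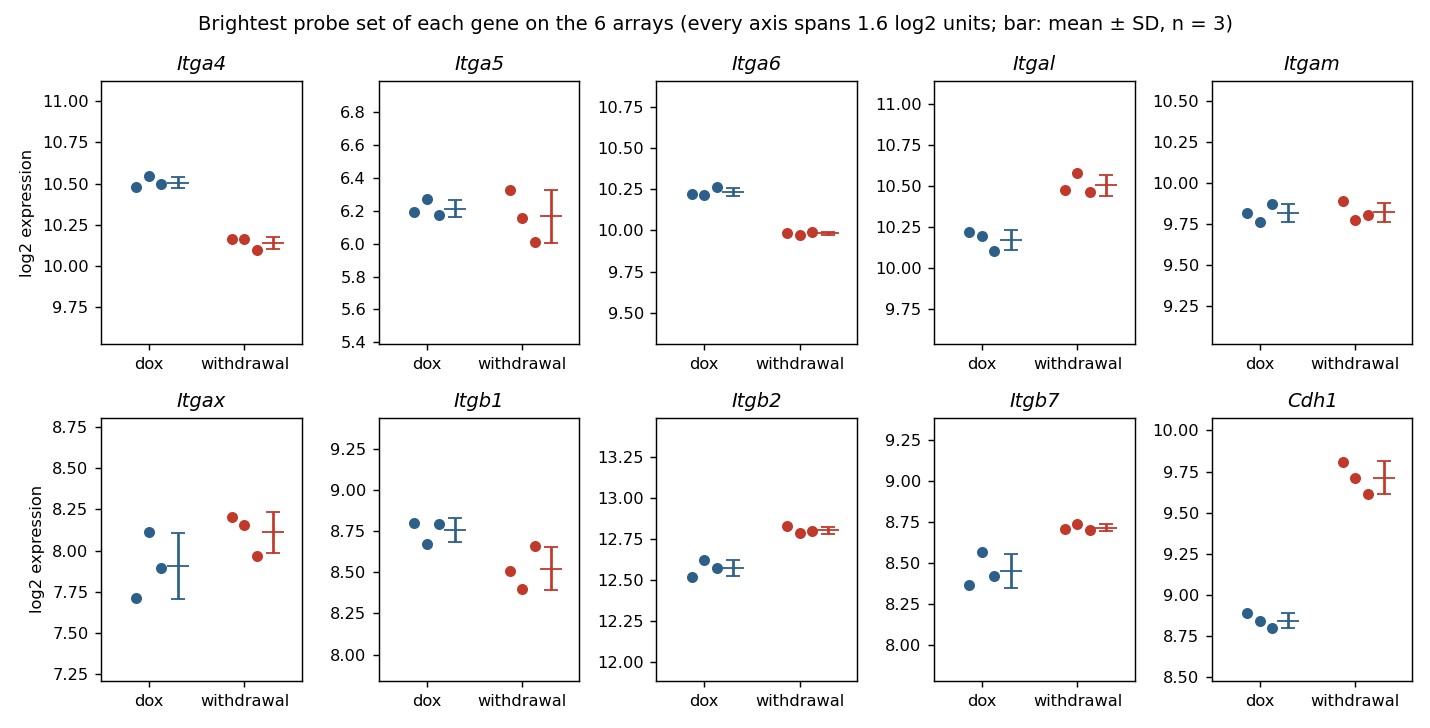
Log2 expression of the brightest probe set of each of the 10 genes (vertical axis, every panel spanning the same range) in the doxycycline (blue) and withdrawal (red) groups; each point is 1 array, and the bar gives the mean ± SD of n = 3. The widest separation is that of Cdh1, from 8.80 to 8.89 under doxycycline and from 9.61 to 9.81 after withdrawal, while the groups overlap for Itga5, Itgam and Itgax.

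The arrays had close medians, from 5.22 to 5.27. Their interquartile ranges ran from 3.71 (withdrawal replicate 3) to 3.92 (withdrawal replicate 1). A principal component analysis of probe sets above the median level separated the groups on its first component (47.7% of the variance), and its second (31.9%) set withdrawal replicate 3 and doxycycline replicate 1 apart from the rest, so results are also given without these arrays. Evi1 itself was read by 3 probe sets of Mecom near the floor of the arrays, with differences of -0.10, -0.04 and 0.13 that did not pass. As the transgene is codon-optimized they may not read it, and they do not check the labels. The 10 progenitor markers measured, among them Ptprc and Kit, had means from 7.66 to 14.28, all above the median level. Their mean level ran from 11.21 to 11.26 over the doxycycline arrays. That of 10 neutrophil markers was higher, from 12.59 to 12.64, so these levels do not single out progenitors. In bulk RNA, a change in the number of cells of a type and a change in RNA per cell cannot be told apart.

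Cdh1 had the largest difference of the 10 genes. Its only probe set, 1448261_at, read 8.89, 8.84 and 8.80 under doxycycline (replicates 1 to 3) and 9.81, 9.71 and 9.61 after withdrawal. Every withdrawal array was above every doxycycline array, with a gap of 0.72 between the nearest. The mean went from 8.84 ± 0.05 (SD, n = 3) to 9.71 ± 0.10 (SD, n = 3), a difference of 0.87 ± 0.08 with a 95% interval from 0.69 to 1.04 (limma adjusted p = 0.00221). The call was kept with any 1 array left out, at adjusted p from 0.00462 to 0.0221, and without withdrawal replicate 3 and doxycycline replicate 1 together it held at 0.94 (limma adjusted p = 0.0354). A single probe set gives no second reading of this transcript.

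Of 10 epithelial markers measured beside Cdh1, none passed in either direction and none had an unadjusted p below 0.05, with differences from -0.08 to 0.12. Epcam, an adhesion molecule of epithelial cells, was the highest of them at a mean of 6.67 and differed by 0.03 ± 0.08. The keratin genes Krt8 and Krt18 differed by -0.01 and -0.08. The mean level of the list ran from 4.77 to 4.84 over the doxycycline arrays and from 4.74 to 4.92 over the withdrawal arrays, so the ranges overlapped, and 7 of the 10 lay below the median level.

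Of 14 mast cell and basophil markers measured, 5 rose with Cdh1, none fell and 9 did not pass. Among all named genes 1.20% were called as higher, and this list was added later with earlier results known. The mean level of the list ran from 8.37 to 8.40 over the doxycycline arrays and from 8.72 to 8.81 over the withdrawal arrays. The genes that rose included Mcpt8, a basophil protease (1.36 ± 0.06), Ms4a2, the beta chain of the IgE receptor (1.16 ± 0.07), the cytokine gene Il4 (0.87 ± 0.08) and Hdc, which makes histamine (0.66 ± 0.06). These 4 calls were kept with any 1 array left out, but without withdrawal replicate 3 and doxycycline replicate 1 together those of Il4 (limma adjusted p = 0.0547) and Hdc (limma adjusted p = 0.0737) were lost. Cpa3, the mast cell carboxypeptidase (0.12), and Fcer1a, the alpha chain of the IgE receptor (0.15), did not pass. Cma1, with the lowest difference of the list (-0.19), was lower on every withdrawal array and did not pass either (limma adjusted p = 0.253). The connective tissue mast cell protease gene Mcpt4 was near the floor, at 4.16 after withdrawal and 4.32 under doxycycline (-0.16). The part of these markers in the difference of Cdh1 was not tested.

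The cytoplasmic partners and the known repressors of E-cadherin gave no call. Of 12 measured genes of the cadherin complex and its partners, none passed and 3 had an unadjusted limma p below 0.05, with a median difference of -0.07. Such a p was found for 14.3% of all probe sets. Ctnna1, the alpha-catenin that links cadherins to actin, read 10.31, 10.33 and 10.40 under doxycycline and 10.08, 9.97 and 10.02 after withdrawal. All withdrawal arrays were lower, and the difference of -0.32 ± 0.07 missed the threshold (limma adjusted p = 0.0616). This probe set can cross-hybridise. Ctnnb1, beta-catenin, differed by -0.14, Ctnnd1, the p120 catenin, by -0.27, and Cbll1, an E3 ligase for E-cadherin, by -0.20, and none of these passed. Cdh3, the P-cadherin gene next to Cdh1 in the RefSeq gene order of GRCm38.p6, was dim, at 5.08 to 5.29 over the 6 arrays, and differed by 0.06 with a 95% interval from -0.12 to 0.23.

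Of the 6 repressor genes measured, Zeb2 had the largest difference. It read 8.52, 8.57 and 8.42 under doxycycline and 8.22, 8.11 and 7.94 after withdrawal, with all withdrawal arrays below, a difference of -0.41 ± 0.09 that missed the threshold (limma adjusted p = 0.0745). Its other 4 probe sets were dimmer and did not pass, at -0.26, -0.22, 0.08 and 0.07. Zeb1 differed by -0.02, and Snai1, Snai2, Twist1 and Twist2 lay below 5 on every array. None of the 6 passed, and 1 had an unadjusted limma p below 0.05. Klrg1, an inhibitory receptor that binds E-cadherin, differed by -0.01 at a level of 5.22 to 5.66.

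Itga4 encodes the alpha 4 chain, which with beta 1 forms VLA-4, the receptor of progenitors for VCAM-1 and fibronectin, and with beta 7 the gut-homing receptor. It was the one integrin among the 9 that passed. The 250 bases before its RefSeq start are shown with those of its partner Itgb1, as the other chain of VLA-4, although Itgb1 did not pass; both windows are 5′ to 3′ on the plus strand, and capitals mark a match to a searched motif.
Itga4, GRCm38.p6 chr2:79255176-79255425: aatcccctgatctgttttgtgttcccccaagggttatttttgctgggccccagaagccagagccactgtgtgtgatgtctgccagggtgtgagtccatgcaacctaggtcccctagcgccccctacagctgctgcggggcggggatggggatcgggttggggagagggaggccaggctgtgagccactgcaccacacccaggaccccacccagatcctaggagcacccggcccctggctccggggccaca
Itgb1, GRCm38.p6 chr8:128685404-128685653: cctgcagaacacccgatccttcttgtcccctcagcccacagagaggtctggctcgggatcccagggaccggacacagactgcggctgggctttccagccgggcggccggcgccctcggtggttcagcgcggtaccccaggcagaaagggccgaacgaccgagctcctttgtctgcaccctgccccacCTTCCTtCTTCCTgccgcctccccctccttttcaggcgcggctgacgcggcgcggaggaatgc
RefSeq windows were at hand for 6 of the 10 genes, and Itga6, Itgal, Itgb2 and Cdh1 had no entry. The letters searched on both strands were ACAAGATA and GATGAG, the cores bound by the amino-terminal and carboxy-terminal fingers of Evi1, GATAA for GATA factors, CACCTG for Zeb and Snail, and AGGAAG for ETS factors. ACAAGATA and GATAA share the letters GATA, so their matches can overlap. The Itga4 window held none of the 5 motifs. The Itgb1 window held 2 matches to AGGAAG, both on the other strand and so written as CTTCCT. That motif was in 3 of the 6 windows (Itgam, Itgb1 and Itgb7) and in 29.5% of the 32851 RefSeq windows of the same length. GATAA was in 1 (Itgax) against 22.6%, and the others were in none of the 6, against 0.524% for ACAAGATA, 10.1% for GATGAG and 17.2% for CACCTG. A match is a description of letters and not a site.

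On its brightest probe set, 1436037_at, Itga4 read 10.48, 10.54 and 10.50 under doxycycline and 10.16, 10.16 and 10.10 after withdrawal. The groups were 0.32 apart at their nearest, and each was tight, with means of 10.51 ± 0.03 and 10.14 ± 0.04 (SD, n = 3). The difference was -0.37 ± 0.06 with a 95% interval from -0.51 to -0.22 (limma adjusted p = 0.0345). Its size stayed between -0.38 and -0.34 with any 1 array left out, but the call was lost without each of the 6 arrays in turn, at adjusted p from 0.0804 to 0.149. Without withdrawal replicate 3 and doxycycline replicate 1 together it was -0.36 (limma adjusted p = 0.187).

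Itga4 had 5 probe sets, and their differences were all below 0. The second brightest, 1456498_at, read 8.01, 7.89 and 7.78 under doxycycline and 7.38, 7.10 and 7.29 after withdrawal, and fell as well (-0.63 ± 0.10, limma adjusted p = 0.0241). Its call was kept only without withdrawal replicate 1 among the 6 fits with 1 array left out, and the adjusted p reached 0.107 without doxycycline replicate 1. The third, 1421194_at, read 6.72, 6.61 and 6.71 against 6.26, 6.15 and 6.40 and missed the threshold at -0.41 ± 0.08 (limma adjusted p = 0.0608). The groups overlapped on both dimmer ones (-0.24 and -0.09). The brightest probe set therefore gave a smaller difference than the next 2, and the dimmest, at 2.76 to 3.48, lay near the floor.

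**Figure D2:**
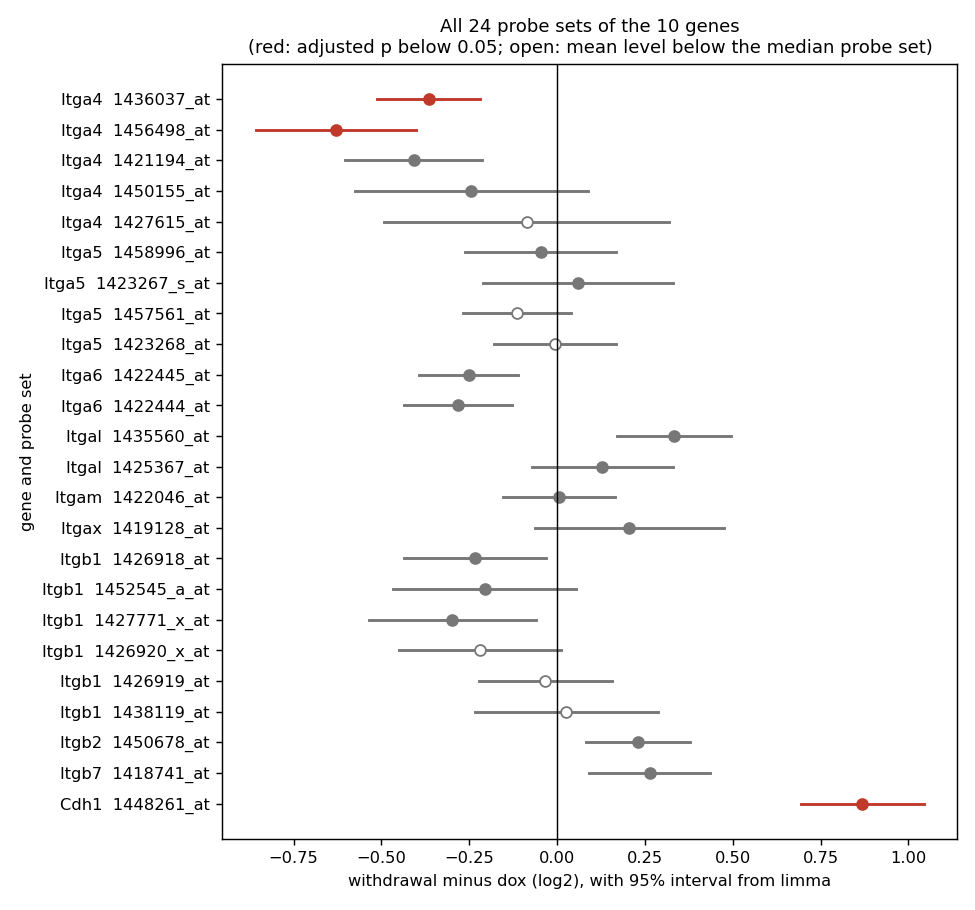
Difference between withdrawal and doxycycline (log2, horizontal axis) for all 24 probe sets of the 10 genes, with the 95% interval from limma; red marks an adjusted p below 0.05, and open circles mark probe sets with a mean below the median level. The called probe sets are that of Cdh1 (0.87) and 2 of Itga4 (-0.37 and -0.63), and the 5 probe sets of the beta 2 family lie above 0, with Itgam at 0.01 and of no stable sign.

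Over all 24 probe sets, 1 rose and 2 fell, against 0.790% of all probe sets called as higher and 1.18% as lower, 1.97% together. The groups did not overlap on 11 of them, against 20.8% of all probe sets. An unadjusted p below 0.05 was found for 11 of the 24, against 14.3% of all probe sets. Probe sets of 1 gene read the same RNA, so the 24 are not separate readings. Of them 18 lay above the median level, and no share is given for probe sets of that level. For 5 of the 10 genes only 1 probe set was present, so that agreement within a gene could be seen for Itga4, Itga5, Itga6, Itgal and Itgb1 only.

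The alpha 6 chain, encoded by Itga6, forms a laminin receptor with beta 1. Its brightest probe set, 1422445_at, read 10.22, 10.21 and 10.26 under doxycycline and 9.99, 9.97 and 9.99 after withdrawal. The groups did not overlap and were the most even of the 10 genes, with an SD of 0.01 (n = 3) after withdrawal. The difference of -0.25 ± 0.06 (95% interval from -0.39 to -0.11) nevertheless missed the threshold (limma adjusted p = 0.100). The other probe set gave -0.28 ± 0.07 (limma adjusted p = 0.0922), again with all withdrawal arrays below. With the mean of the 2 probe sets, which tests fewer features, Itga6 passed at -0.27 (limma adjusted p = 0.0306).

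The shared beta 1 chain, encoded by Itgb1, was read by 6 probe sets. The brightest, 1426918_at, read 8.80, 8.67 and 8.79 under doxycycline and 8.51, 8.40 and 8.66 after withdrawal. Withdrawal replicate 3 came within 0.01 of doxycycline replicate 2, so the groups barely separated. The difference was -0.23 ± 0.09 with a 95% interval from -0.44 to -0.03 (limma adjusted p = 0.276). The next 3 probe sets differed by -0.21, -0.30 and -0.22 with overlapping groups, and the last 2 were near 3 on the log2 scale and differed by -0.03 and 0.03. None of the 6 passed.

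Itga5 encodes the alpha 5 chain of the classical fibronectin receptor. Its brightest probe set, 1458996_at, read 6.19, 6.27 and 6.17 under doxycycline and 6.33, 6.16 and 6.01 after withdrawal. The groups overlapped, and the difference was -0.05 ± 0.09 with a 95% interval from -0.26 to 0.17 (limma adjusted p = 0.884). Its sign turned without withdrawal replicate 3 (0.03). The other 3 probe sets were dimmer, with differences of 0.06, -0.11 and -0.01.

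The beta 2 family is the adhesion system of mature white cells. Its common chain, encoded by Itgb2, read 12.52, 12.62 and 12.58 under doxycycline and 12.83, 12.78 and 12.80 after withdrawal on its only probe set, 1450678_at. All withdrawal arrays were above, by at least 0.16. The difference was 0.23 ± 0.06 with a 95% interval from 0.08 to 0.38 and missed the threshold (limma adjusted p = 0.145).

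Itgal encodes the alpha L chain of LFA-1, the ICAM receptor of leukocytes. On its brightest probe set, 1435560_at, it read 10.22, 10.19 and 10.10 under doxycycline and 10.47, 10.58 and 10.46 after withdrawal. The groups were 0.24 apart at their nearest. Among the integrins that missed the threshold it came nearest, at 0.33 ± 0.07 with a 95% interval from 0.17 to 0.49 (limma adjusted p = 0.0668). Its second probe set, 1425367_at, read 6.21, 6.29 and 6.25 against 6.44, 6.48 and 6.22, with overlapping groups, and differed by 0.13.

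The other alpha chains of the family are myeloid. Itgam encodes alpha M, the CD11b chain of the complement receptor Mac-1, and read 9.82, 9.76 and 9.87 under doxycycline and 9.89, 9.78 and 9.80 after withdrawal. The groups lay over each other, and the difference was 0.01 ± 0.07 with a 95% interval from -0.15 to 0.16 (limma adjusted p = 0.982). Its sign turned without withdrawal replicate 1 (-0.026) or doxycycline replicate 2 (-0.021).

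Itgax encodes alpha X, the CD11c chain of dendritic cells and macrophages, and is the next gene after Itgam in the RefSeq gene order. It read 7.71, 8.11 and 7.89 under doxycycline and 8.20, 8.16 and 7.97 after withdrawal. The spread under doxycycline was the widest of the 10 genes (SD 0.20, n = 3), and its groups overlapped. The difference of 0.21 ± 0.12 had a 95% interval from -0.06 to 0.47 (limma adjusted p = 0.492). Its doxycycline replicate 1 and withdrawal replicate 3, the arrays apart on the second component, were the lowest of their groups.

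Of 13 measured markers of monocytes, macrophages and dendritic cells, which carry beta 2 integrins, 3 fell, none rose and 10 did not pass. Among all named genes 1.57% were called as lower, and this list too was added later with earlier results known. The mean level of the list ran from 9.17 to 9.19 over the doxycycline arrays and from 9.03 to 9.05 over the withdrawal arrays. The genes that fell were Mpeg1, a pore-forming protein of macrophages (-0.44 ± 0.06), Cd68 (-0.40 ± 0.06) and Csf1r, the M-CSF receptor (-0.38 ± 0.06). The other 2 probe sets of Csf1r, both dimmer, differed by -0.19 and -0.05 with overlapping groups and did not pass. All 3 calls were lost when a doxycycline array, or withdrawal replicate 1 or 2, was left out, and in the fit on 4 arrays. Their part in the values of the beta 2 family was not tested.

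Itgb7 encodes the beta 7 chain, the other partner of alpha 4. It read 8.37, 8.57 and 8.42 under doxycycline and 8.71, 8.74 and 8.70 after withdrawal on its only probe set, 1418741_at. All withdrawal arrays were above, by at least 0.14, and they were closer to each other (SD 0.02, n = 3) than the doxycycline arrays (SD 0.10, n = 3). The difference was 0.26 ± 0.07 with a 95% interval from 0.09 to 0.44 and missed the threshold (limma adjusted p = 0.151). The chains that join alpha 4 thus had differences of opposite sign, -0.23 for Itgb1 and 0.26 for Itgb7, neither of which passed. Itgae, the alpha E chain that with beta 7 binds E-cadherin, read 6.24 to 6.57 under doxycycline and 6.06 to 6.22 after withdrawal, and differed by -0.28 ± 0.10 (limma adjusted p = 0.271).

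How far the calls depended on the model is shown by the plot of adjusted p under each alternative. Cdh1 passed in all 16 alternatives. Itga4 passed in 8 of 16. With a variance trend and robust options in limma, 6 of the 10 genes passed, adding Itgal and Itgb2 (both higher), Itgb7 (higher) and Itga6 (lower). The share of all genes called under these options is not given, so this count has no background to be set against. Itga5, Itgam, Itgax and Itgb1 passed in none.

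**Figure D3:**
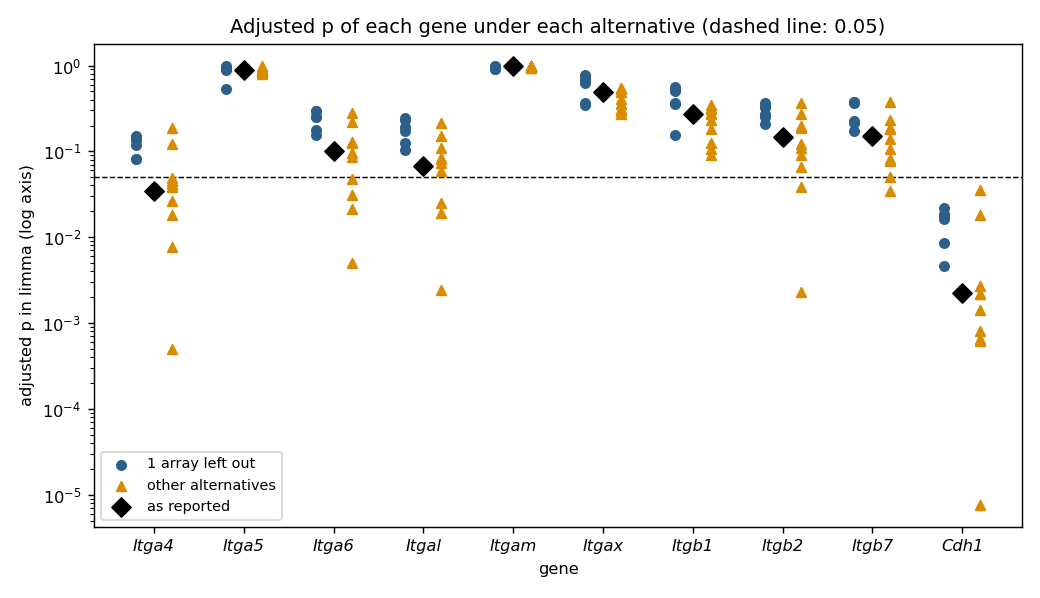
Adjusted p in limma (vertical log axis) of each of the 10 genes as reported (diamonds), with 1 array left out (circles) and under the other alternatives (triangles); the dashed line is the threshold of 0.05. All points of Cdh1 lie below the line, all 6 circles of Itga4 lie above it, and Itga6, Itgal, Itgb2 and Itgb7 cross it under some of the other alternatives only.

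The genes around these receptors were described from 6 lists holding 101 genes, of which 91 were measured, with 1 rise and 4 falls. That is 5.49% of the measured genes, against 2.77% of all named genes, and their median difference was 0.02. The rise was on the list of other integrin subunits, where 1 of 15 measured genes passed. Itga1, the alpha 1 chain of a collagen receptor with beta 1, read 7.05, 6.96 and 6.76 under doxycycline and 7.61, 7.56 and 7.35 after withdrawal, a difference of 0.58 ± 0.10 (limma adjusted p = 0.0387). Its groups did not overlap. Its call was kept with 1 array left out only without withdrawal replicate 3, and its dimmer probe set did not pass (0.18). Itga2b, the platelet alpha IIb chain, differed by -0.35 and Itgb3, its beta 3 partner, by 0.32, and neither passed.

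Of 19 measured integrin ligands, 2 fell and none rose, against 1.57% of all named genes called as lower. Thy1, a surface glycoprotein that binds Mac-1, read 11.08, 11.20 and 11.12 under doxycycline and 10.41, 10.37 and 10.35 after withdrawal. All withdrawal arrays were lower by at least 0.67, a difference of -0.76 ± 0.07 (limma adjusted p = 0.00221). The call was kept with any 1 array left out. F11r, the junctional molecule JAM-A that binds LFA-1, read 7.69, 7.64 and 7.70 against 7.18, 6.92 and 7.05 and fell (-0.63 ± 0.08, limma adjusted p = 0.0128), a call lost without any 1 of the doxycycline arrays. Its second, dimmer probe set differed by -0.06 with overlapping groups. The VCAM-1 gene Vcam1 (0.16) and the fibronectin gene Fn1 (0.16) were at low levels, Vcam1 below the median level and Fn1 little above it, and neither they nor Icam1 (0.13) passed.

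Of 30 measured genes that activate integrins or tie them to actin, 1 fell and none rose, and the median difference was 0.06. Among all named genes 1.57% were called as lower. Parvb, the beta-parvin adaptor, read 6.49, 6.52 and 6.48 under doxycycline and 6.04, 5.81 and 5.91 after withdrawal, a difference of -0.58 ± 0.08 (limma adjusted p = 0.0130). Its call was kept without withdrawal replicate 1 or 3 and lost without any 1 of the other arrays, and its second probe set, at about 5, differed by -0.02. The talin gene Tln1 (0.06 ± 0.17) and the kindlin gene Fermt3 (-0.06 ± 0.08), whose proteins switch integrins on from inside, did not pass. Tln1 was lowest on doxycycline replicate 1 and withdrawal replicate 3, both at 10.07.

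Of 9 measured tetraspanins and membrane partners, 1 fell and none rose, against the same 1.57% of all named genes called as lower. Cd151, a tetraspanin partner of the laminin-binding integrins, read 9.28, 9.28 and 9.36 under doxycycline and 8.93, 8.99 and 8.86 after withdrawal, a difference of -0.38 ± 0.07 (limma adjusted p = 0.0413) on a probe set that can cross-hybridise. Its call was lost without each of the 6 arrays in turn. Of its other 5 probe sets none passed, 3 with differences of -0.22 to -0.24 and 2 above 0. Cd37, a tetraspanin of leukocytes, had the larger difference of 0.62 ± 0.17 and did not pass (limma adjusted p = 0.136). Without withdrawal replicate 3 and doxycycline replicate 1 together, none of the 5 called genes of these lists passed, with Thy1 at limma adjusted p = 0.0522.

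**Figure D4:**
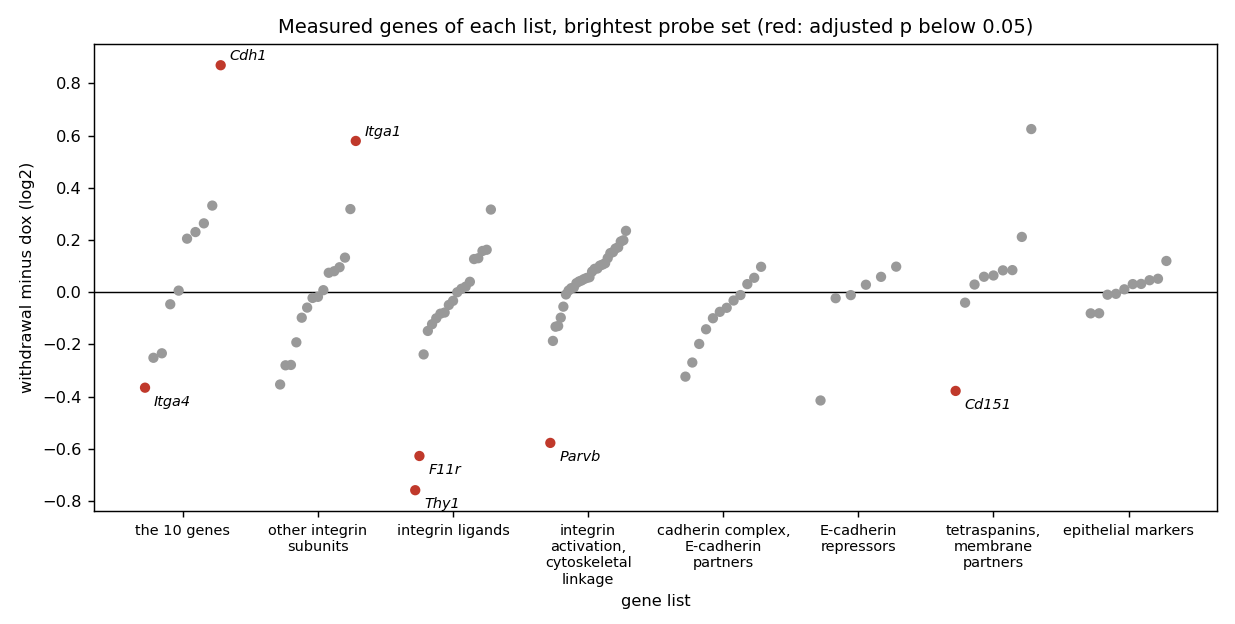
Difference between withdrawal and doxycycline (log2, vertical axis) of each measured gene, 1 point per gene on its brightest probe set, for the 10 genes, the 6 adhesion lists and the epithelial markers; red marks an adjusted p below 0.05. Itga1 (0.58) is the only called gene above 0 outside the 10, Thy1 (-0.76) is the lowest point, and the epithelial markers lie between -0.08 and 0.12.

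For the called genes the nearest profiles were sought among 7937 other named genes that reached a mean of 7 in at least 1 group, by Pearson correlation over the 6 arrays. Nearest to Itga4 were Tmem176a (r = 0.9997) and the glutamate receptor gene Gria3 (r = 0.999), which differed by -0.94 and -0.88. Nearest to Cdh1 were Ppic, a cyclophilin (r = 0.998), and Paxbp1 (r = 0.998), which differed by 0.19 and 0.15 and did not pass. The arrays lie in 2 separate groups and share their normalization, so these correlations mostly restate the difference between groups and describe the shape of the profile, not its size.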

How the data were processed

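The authors deposited log2 expression values for each probe set and array, made with RMA per the submitters' processing notes. No source used here gives the log base: log2, RMA's usual scale, was read from the range of the values (2.22 to 15.20), and all folds rest on it. RMA background-corrects, normalizes between arrays and summarises probes. Its version is not given in the sources used here. RMA draws arrays towards a shared distribution, although the interquartile ranges still ran from 3.71 to 3.92, and it compresses differences near the floor. Of 45101 rows, 64 control probe sets were left out. The annotation gave 34945 of the rest 1 symbol, 932 several and 9160 none; all 10 members matched a RefSeq gene.

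Groups, taken from titles, were compared over all 6 arrays in limma (version 3.58.1, with R 4.3.3; functions lmFit and eBayes) without covariates (4 residual and 3.54 prior degrees of freedom), two-sided, adjusted by Benjamini-Hochberg over 45037 probe sets. The steps were tested on simulated data. The number of arrays limits the precision.

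Members and lists were chosen with earlier results of these data known, and 4 marker lists (mast cell and basophil, monocyte, neutrophil, red cell) and 2 alternatives were added later. Named were all members, in each list up to 4 passed genes, and 2 genes most like each called member. The rule also took from each list up to 2 others of at least 7 with the largest differences, but not all of these are named. Other genes named were chosen after their values were seen, so those named without a call are not always those with the largest differences. Promoter windows came from RefSeq. Figures used matplotlib 3.10.9.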

Additional observations from a re-analysis of the deposited data

How the results depend on the processing

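With 1 array left out, 1 of the 10 genes passed in each fit (Cdh1, as Itga4 was lost), 1 or 2 of the 24 probe sets, and 1 to 4 of the 91 other adhesion genes. The titles give both groups replicate numbers 1 to 3. Deviations of same-numbered arrays correlated at -0.30, 0.46 and -0.03, and 3 such values cannot settle whether the numbers pair the arrays. With the replicate number as a block, 1 gene, 1 probe set and 3 adhesion genes passed. On probe sets above the median level, with fewer tests, 5 genes, 8 probe sets and 11 adhesion genes passed; with trend and robust options 6, 9 and 13; with array weights 4, 6 and 10. The shares of all genes called in these 3 settings are not given, so the counts cannot set these genes apart from the rest. Without withdrawal replicate 3 and doxycycline replicate 1, a choice made after seeing the data, 1, 1 and 0 passed, from 4 arrays. The remaining alternatives (median centring, repeated quantile normalization, averaging the probe sets of each gene, dropping probe sets named as shared or cross-hybridising, and the interquartile range as covariate) kept each count within 1.5 times. The cause of the higher counts with trend and robust options or array weights was not tested.

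The sign of 8 of the 10 differences held in every alternative. That of Itgam turned with array weights (-0.015) and ranged from -0.026 to 0.034 with 1 array left out. That of Itga5 turned in the fit on 4 arrays (0.022) and ranged from -0.13 to 0.032 with 1 array left out. Dim probe sets, below the median level, limit what can be seen, since RMA compresses them.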

Other observations

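Other marker lists were read for cells that the culture could hold. Among all named genes 2.77% were called, and 14.3% of all probe sets had an unadjusted limma p below 0.05. Of 10 neutrophil markers measured, Camp, the cathelicidin gene, rose (0.35 ± 0.06, limma adjusted p = 0.0430), Mmp8, the neutrophil collagenase gene, differed by -0.30 and did not pass, and 8 others did not pass either. The call of Camp was lost without each of the 6 arrays in turn. Of 8 red cell markers none passed, and 5 had an unadjusted limma p below 0.05. Among them were Klf1, with the largest difference (-0.48), Epor (-0.37) and the transcription factor gene Gata1 (-0.36). The transferrin receptor gene Tfrc (0.30) and Alas2 (0.37), which lay below the median level, differed the other way. Of 5 T-cell markers none passed and none had an unadjusted limma p below 0.05. Of 4 B-cell markers, all below the median level, Cd79b fell (-0.57 ± 0.10, limma adjusted p = 0.0320) from 5.13 to 4.56, a call also lost without each of the 6 arrays in turn. Of 8 stromal and endothelial markers none passed, 1 had an unadjusted limma p below 0.05, and Pecam1, also an adhesion molecule of leukocytes, had the highest level and differed by 0.14. Of the 10 progenitor markers Cd34 fell (-0.51 ± 0.10, limma adjusted p = 0.0463), a call kept with 1 array left out only without withdrawal replicate 1, while Csf2rb (0.34) and Mpo (0.32) did not pass.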
